A study of Homo sapiens with 2 samples.

Results

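MALAT1 is a long noncoding RNA gene on chromosome 11, and the results here concern the 4 array probes that carry its name. They are all the probes named MALAT1 that are not control spots, among 41000 probes with 30484 gene names, and they were ordered by their position along the transcript. The gene was selected on its log2 ratios on these same arrays, so its differences between the RNAs are a description and were not tested. Its signals, its spread over probes and its neighbours come from the same arrays.

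HEK-293, a transformed line from human embryonic kidney, was transfected with a synthetic mimic of miR-204 or with scrambled oligonucleotides as the control, each at 75 nM, and RNA was taken after 48 h. Both RNAs were hybridised together on 2 Agilent 2-colour arrays. Cy5 marked the miR-204 RNA and Cy3 the control RNA on the first array, and the second, the dye-swap array, here called the swapped array, had these dyes exchanged. The 2 arrays are 1 dye swap and were counted as 1 replicate, the labels naming no separate transfections, so no value below has an error over cultures.

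MALAT1 RNA is abundant in many cell types, stays in the nucleus and gathers at nuclear speckles, bodies rich in splicing factors. Its 3′ end is not made by ordinary polyadenylation: RNase P cuts the precursor in front of a small tRNA-like RNA, mascRNA, and a triple helix shields the end that is left. MicroRNAs pair through their seed, the bases near their 5′ end, mostly with messenger RNAs in the cytoplasm. The human genome encodes miR-204 within TRPM3, and its hairpin gives 2 mature strands.

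The mature strands of miR-204 are shown because the mimic is the only difference between the 2 RNAs that the labels give, with the 7 seed bases, 2 to 8, in capitals. Both come from RefSeq on GRCh38.p14, where they lie on the minus strand at chr9:70810031-70810052 for the 5p strand of 22 bases and at chr9:70809993-70810013 for the 3p strand of 21 bases. The labels do not say which strand the mimic carried.
hsa-miR-204-5p: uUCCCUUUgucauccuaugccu
hsa-miR-204-3p: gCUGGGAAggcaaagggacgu
The seeds of the strands are different, so a full match to one (AAAGGGA in DNA letters for 5p) is no match to the other (TTCCCAG for 3p). Neither the sequence of MALAT1 nor that of its probes was used here, and no seed match was looked for.

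The arrays themselves set how far each ratio can be read. Between 25284 and 29024 of 43376 spots other than controls were well above background in a channel. In all 4 channels 23155 probes were well above background, and their log2 ratios, miR-204 over control, spread with an SD of 0.43 (first array) and 0.28 (swapped array) around medians of 0.02 and -0.01. Across these probes Pearson's r between the 2 arrays' ratios was -0.08 and Spearman's rho -0.07. These are correlations over probes that share the same 2 RNAs, and probes are not replicates. Of 5 genes known from HEK-293, 4 had a counted probe (VIM, CDH2, NEFL and NEFM), while the single probe of PAX2 was well above background in no channel. The 8 probes of PTPRC, CD3E, ALB and HBB, which mark other cell types, were well above background in 0 channels.

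All 4 MALAT1 probes were lower with miR-204 than with control on both arrays, but by unequal amounts. The 2 probes nearer the 5′ end were 2.47-fold lower in the mean of the arrays, and the 2 nearer the 3′ end were 1.33-fold lower. In whole-culture RNA, fewer cells with the transcript and less of it per cell cannot be told apart. All 4 probes were well above background in both RNAs on both arrays, 16 of 16 channel values, and none was saturated in any channel. They lie on the plus strand of hg18 within about 5 kb, each printed on 1 spot per array, and the file describes their target as a noncoding RNA. Their distance from either end of the transcript was not measured, so 5′ and 3′ give only their order. The signals below are processed signals, that is intensities after the scanner software's correction for background and dye. A signal depends on its probe, so the 4 probes are not ranked as amounts of RNA.

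The probe nearest the 5′ end, A_23_P21143 (chr11:65025148-65025207), was dim. The first array gave a processed signal of 178 for control and 48.7 for miR-204. The swapped array gave 110 for control and 66.6 for miR-204. Both miR-204 values lay below both control values. Here and at the probes below, the share of all probes with such a separation is not given, so it describes the probe only. After quantile normalization the log2 ratios of the first and swapped arrays were -1.88 and -0.72, a mean of -1.30. The uncorrected mean signals were 165 for control and 101 for miR-204 (first array) and 208 and 95.1 (swapped array), over local backgrounds of 59 to 63. At this probe the background was therefore a large part of the measured spot signal.

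The next probe, A_24_P829261 (chr11:65026718-65026777), starts 1570 bases further on and was by far the brightest of the 4. Its processed signal fell from 31944 for control to 7567 for miR-204 on the first array. From 16180 it fell to 10878 on the swapped array. Again both miR-204 values lay below both control values. The log2 ratios were -2.06 and -0.55, a mean of -1.31 and 2.47-fold lower with miR-204. Local backgrounds were 53 to 70 at this spot, against uncorrected signals of 5718 to 24533, so background made up little of its signal.

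The third probe, A_24_P873659 (chr11:65029449-65029508), starts 4301 bases from the first. It had 156 for control and 119 for miR-204 as processed signals of the first array. The swapped array had 110 for control and 83.9 for miR-204. Here the processed signals overlapped across the arrays, the miR-204 value of the first array being above the control value of the swapped array. After quantile normalization they did not overlap. The log2 signals were then 7.04 and 7.02 for control and 6.66 and 6.62 for miR-204 on the first and swapped arrays. The log2 ratios were -0.39 and -0.40, and the mean of -0.39 is 1.31-fold lower.

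The probe nearest the 3′ end, A_24_P497244 (chr11:65030385-65030444), starts 5237 bases from the first. Control gave 528 and miR-204 gave 389 as processed signals of the first array. The swapped array had 439 for control and 325 for miR-204. Both miR-204 values were below both control values. The log2 ratios were -0.42 and -0.45, and the mean of -0.43 is 1.35-fold lower.

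**Figure D1:**
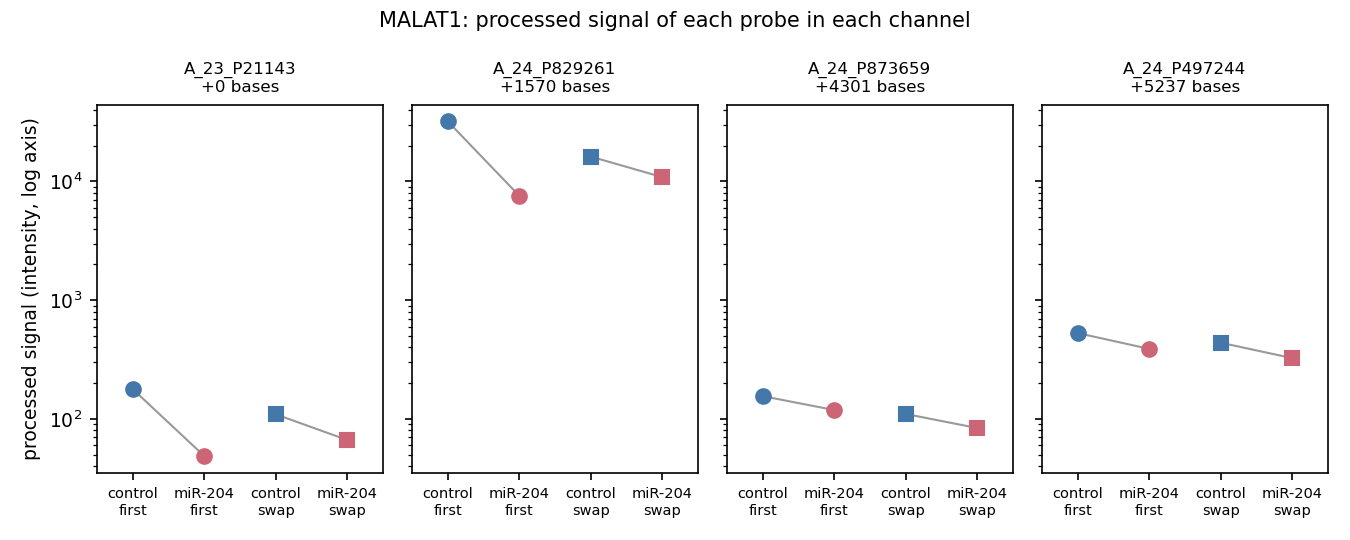
Processed signal (intensity, log axis) of each MALAT1 probe in the control and miR-204 channels of the first and the swapped array. Each point is 1 spot, and the 4 panels follow the order of the probes along the transcript, the one nearest the 5′ end first. Within each array the miR-204 signal was below the control signal at every probe, as for A_24_P829261 with 31944 against 7567 on the first array.

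All 8 of 8 values of a probe on an array were below 0. For comparison, 23.2% of all 25268 counted probes were lower on both arrays, whatever the size. A probe was counted when it was well above background for one RNA, control or miR-204, on both arrays, and called lower or higher when its mean ratio was 2-fold or more with the same sign on both arrays. By that call 2 MALAT1 probes were lower, A_23_P21143 and A_24_P829261, and the call took in 0.518% of counted probes, 131 in number. On the swapped array alone 0 of the 4 were past 2-fold, and on the first array alone the same 2 were. No MALAT1 probe was higher, a call met by 0.123% of counted probes, 31 in number. Since the gene was chosen for these ratios, the shares give the background and nothing is read from them about MALAT1.

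Over the 4 probes the mean log2 ratio was -1.19 with an SD over probes of 0.91 on the first array. For the swapped array the mean was -0.53 with an SD over probes of 0.15. The mean of the arrays was -0.86, with an SD over probes of 0.52, or 1.81-fold lower. Probes of 1 gene share the RNA, so these SDs describe the probes and are not errors of the condition.

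The 5′ and 3′ pairs of probes differed mostly on the first array. There the first pair averaged -1.97 and the last pair -0.40 on the log2 scale, a difference of -1.57. The swapped array's pairs averaged -0.64 and -0.42, a difference of -0.22. The order of the pairs was thus the same on both arrays, with a gap that was far smaller on the second. The ratios of the arrays lay 1.16 apart at A_23_P21143 and 1.505 apart at A_24_P829261, but 0.011 apart at A_24_P873659 and 0.025 apart at A_24_P497244. For scale, the error that the extraction software gives for a log2 ratio on 1 array was 0.21 to 0.29 at the 4 probes. That error covers the spot on its array, not the RNA or the culture.

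**Figure D2:**
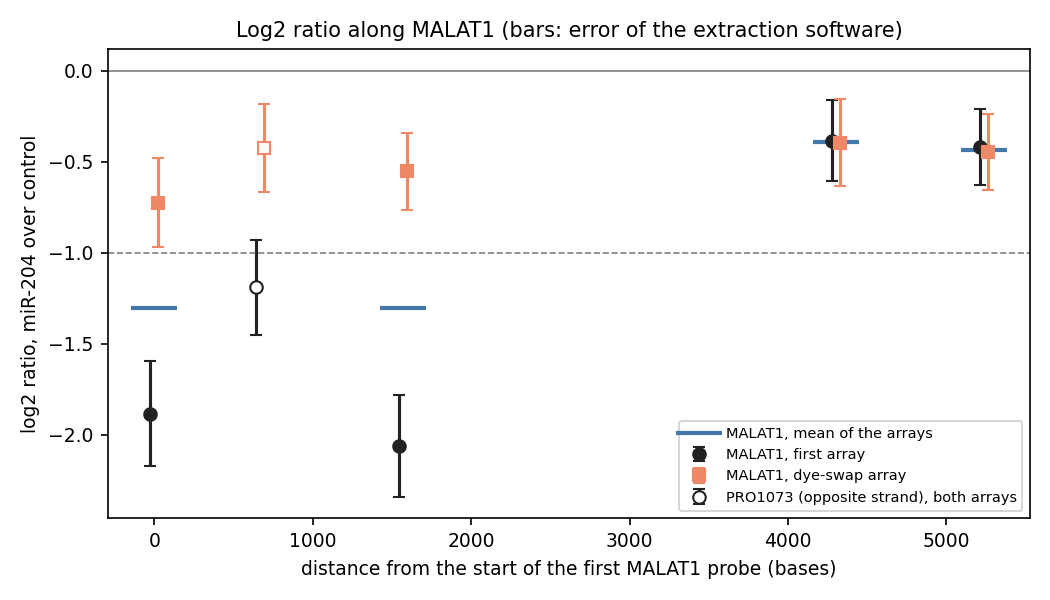
Log2 ratio of miR-204 over control at each MALAT1 probe on each array, against distance from the start of the first probe in bases; points are array values, shifted slightly sideways to be seen, their bars the software's error, wide marks the mean of the arrays, and open points the opposite-strand probe named PRO1073. Every point is below 0, and the arrays lie 1.505 apart at A_24_P829261 and 0.011 apart at A_24_P873659.

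Read within 1 dye, where the RNAs come from different arrays, the brightest probe was lower with miR-204 in both colours. Its log2 difference was -1.07 within Cy3 and -1.54 within Cy5. A_23_P21143 was likewise lower within both dyes, by -0.97 and -1.64. The same-dye differences were -0.42 and -0.36 at A_24_P873659 and -0.22 and -0.65 at A_24_P497244, so the direction did not depend on the dye at any of the 4. The part of each ratio that changed sign with the dye, the first array's ratio minus the mean of the arrays, was -0.58 at A_23_P21143 and -0.75 at A_24_P829261. What lies behind it was not tested.

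Set among the same 23155 probes, all above background throughout, and counted from the lowest ratio, the brightest probe was 13 (first array), 498 (swapped array) and 6 (mean of the arrays). A_23_P21143 was 27, 126 and 7 in the same order. The 3′ probes stood far less low, with A_24_P497244 at 961 and A_24_P873659 at 1254 in the mean, so that 4.15% and 5.42% of these probes had a ratio as low or lower. As this order is made of the values the gene was chosen for, it describes where the probes lie and tests nothing.

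Bright spots usually carry less noise, so A_24_P829261 was also set against spots as bright or brighter. In 1148 of the 23155 probes, or 4.96%, the signal was as high or higher. Their ratios had SDs of 0.29 and 0.17 on the 2 arrays, both narrower than over all probes. Counted from the lowest among them, its ratio was 1 (first array), 6 (swapped array) and 1 (mean), and it was the only 1 called lower. The gene was chosen for these ratios, so this place among bright spots is a description and tests nothing.

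**Figure D3:**
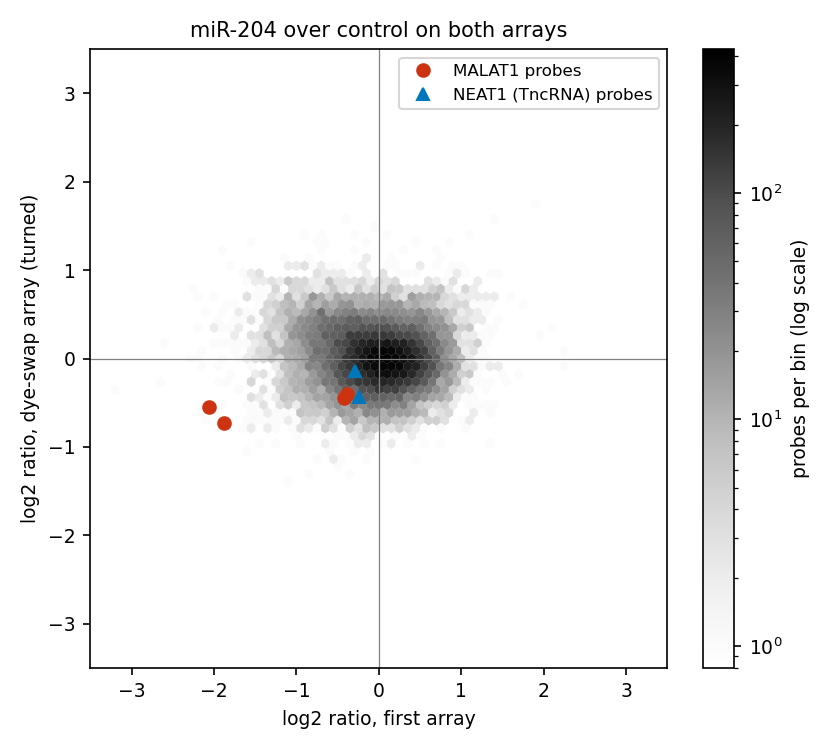
Log2 ratio of miR-204 over control on the swapped array, turned to the same direction, against that on the first array, for 23155 probes well above background in all 4 channels (grey, probes per bin on a log scale), with MALAT1 (red) and NEAT1 (blue) probes on top. All 4 MALAT1 probes and both NEAT1 probes lie in the lower left, below 0 on both arrays, and 2 MALAT1 probes stand far to the left, at -1.88 and -2.06 on the first array.

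Few gene names had as many counted probes as MALAT1. There were 277 gene names with 4 or more counted probes, 205 of them with exactly 4. Among these names, 4 (1.44%) had every probe lower on both arrays and 5 had every probe higher on both. The other 3 lower ones were AHNAK, a giant protein beneath the plasma membrane, TPM4, an actin-binding tropomyosin, and SDHD, a subunit of succinate dehydrogenase. MALAT1, which was chosen for its ratios, had the lowest mean ratio of the 277, whose median was -0.04. AHNAK followed with a mean over its probes of -0.80, 3 of the 4 being well above background in all channels, TPM4 with -0.58 and SDHD with -0.27.

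MALAT1 also had more spread over its probes than most of these genes. Its SD over probes was 0.52, 12 from the highest of 277, where the median SD was 0.18 and the range 0.0043 to 0.79. The SD over probes was 0.24 for AHNAK, 0.43 for TPM4 and 0.04 for SDHD. A probe called lower was present in 7 of the 277 gene names, and MALAT1 was the only 1 with 2 of them. Both of these MALAT1 probes were past 2-fold on the first array and not on the swapped array. As the gene was chosen for these ratios, its place among the 277 names tests nothing.

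**Figure D4:**
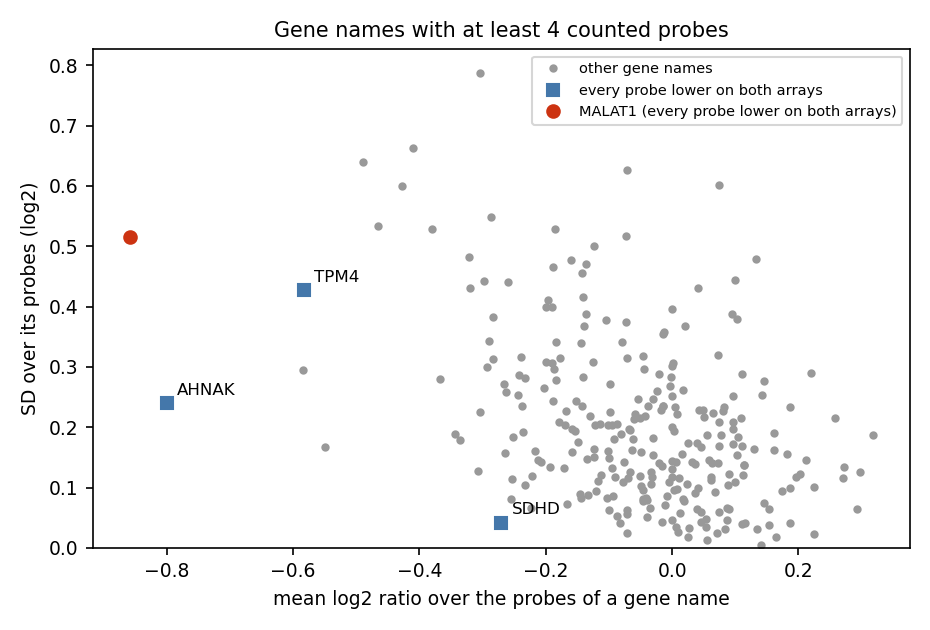
SD over the probes of a gene name (log2) against its mean log2 ratio of miR-204 over control, for the 277 gene names with at least 4 counted probes, with MALAT1 in red and the other names whose every probe was lower on both arrays as blue squares. MALAT1 lies farthest to the left, at -0.86, with an SD of 0.52 against a median of 0.18.

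The gene names whose pair of ratios lay nearest to that of MALAT1 (-1.19 and -0.53) were looked for among 1034 names with at least 3 probes well above background in all 4 channels, by Euclidean distance over the 2 arrays. PDIA3, a protein disulphide isomerase of the endoplasmic reticulum, was nearest, with -1.17 and -0.27 and a distance of 0.26. It was followed by AHNAK at a distance of 0.36 over 3 probes, TMEM113 at 0.38, TPM4 at 0.40 and TUBA4A, an alpha tubulin, at 0.45. With all 4 counted AHNAK probes, an alternative chosen after seeing the data, its pair was -1.01 and -0.59 and its distance 0.19, nearer than PDIA3, and the 5 names were the same. With only 2 arrays the likeness rests on 2 numbers per gene.

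Probes of other names also lie inside the MALAT1 span, 2 of them within 10 kb and both in the opposite orientation. The orientation was read from the order of the coordinates, which gave the RefSeq strand for 99.0% of 17765 probes whose gene has 1 strand there. A_24_P25698 (chr11:65025815-65025874), named PRO1073 in the files, had processed signals of 107 for control and 46.6 for miR-204 on the first array. Its signals on the swapped array were 83.8 and 62.8 in the same order. Its log2 ratios were -1.19 and -0.43, a mean of -0.81, so it too was lower on both arrays without reaching the 2-fold call. RefSeq today gives PRO1073 as an older name of CCNL1, a gene of chromosome 3, whereas the file's coordinates put the probe within MALAT1, so its gene name is uncertain. RefSeq also lists an antisense RNA here, TALAM1, and which transcript this probe measured was not tested. The other, A_24_P935147 (chr11:65025968-65026027), was well above background in 0 of 4 channels and gives no fold.

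NEAT1, the nearby noncoding RNA that builds paraspeckles and is named TncRNA in the files, was lower with miR-204 at both its probes on both arrays. Its probe A_24_P290999, 76510 bases from the MALAT1 span, had log2 ratios of -0.29 and -0.14. That probe was dim, with processed signals of 40.3 to 56.8 over the 4 channels. Its probe A_24_P566916, 75239 bases away, had -0.24 and -0.44. Over both probes the mean was -0.28, beside -0.41 for the 2 MALAT1 probes nearer the 3′ end, -1.30 for the 2 nearer the 5′ end and -0.86 for all 4. Of the 2 NEAT1 probes 0 were called, beside 0.518% lower and 0.123% higher of all counted probes. The difference between the 2 genes was not tested.

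Beyond 10 kb and up to 100 kb from the MALAT1 span lay 18 probes, of which 13 were counted. None was called, beside 0.518% lower and 0.123% higher of all counted probes. Of the 13, 4 were lower on both arrays, both NEAT1 probes among them, beside 23.2% of all counted probes. Another 2 were higher on both. Mean log2 ratios ran from -0.36 to 0.35 over the 12 of them that were well above background in all 4 channels. LTBP3, a binding protein of latent TGF-beta, had -0.45 and 0.44 at A_24_P298360, which is among the 12. Its other probe, A_24_P264790, was well above background in 3 of 4 channels, with a processed signal of only 6.81 for control on the first array, and no fold is given for it. FKSG44, now FRMD8, had 0.41 and 0.30. No counted probe in this window had a ratio below -1 on either array.

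Of 38 other long noncoding RNAs listed, 18 had a counted probe, with 26 probes in all. Of these probes 0 were called lower and 0 higher, beside 0.518% and 0.123% of all counted probes. Their median log2 ratio was 0.00, with 8 of 26 probes lower on both arrays, where 23.2% of all counted probes were, and 6 higher on both. DLEU2, the host of the miR-15a and miR-16-1 cluster, had the largest mean ratio in size at 0.59, followed by WT1-AS, antisense to the kidney gene WT1, with 0.31 and MIAT, another nuclear noncoding RNA, with -0.31. The WT1-AS probe and 1 of the 2 MIAT probes were well above background in 3 of 4 channels.

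All 12 genes of RNase P and of the handling of the MALAT1 3′ end were counted, with 17 probes and a median log2 ratio of 0.02. The calls took in 0 of the 17, beside 0.518% lower and 0.123% higher of all counted probes. On both arrays 3 were lower, beside 23.2% of all, and 5 were higher. RPP40, a subunit of RNase P, had a mean of 0.38 and RPP38, another subunit, 0.21. METTL16, which binds the triple helix of MALAT1, had -0.54 and -0.18, a mean of -0.36.

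The proteins of speckles and paraspeckles were measured best, with 46 counted probes for all 23 genes, of which 0 were called in either direction, beside the same 0.518% lower and 0.123% higher. The median log2 ratio was -0.04, with 11 probes lower on both arrays and 4 higher on both. The splicing factors SRSF3 and SRSF2 had means of 0.22 each. Over all 25268 counted probes 23.2% were lower on both arrays, and in this list 11 of 46 were.

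**Figure D5:**
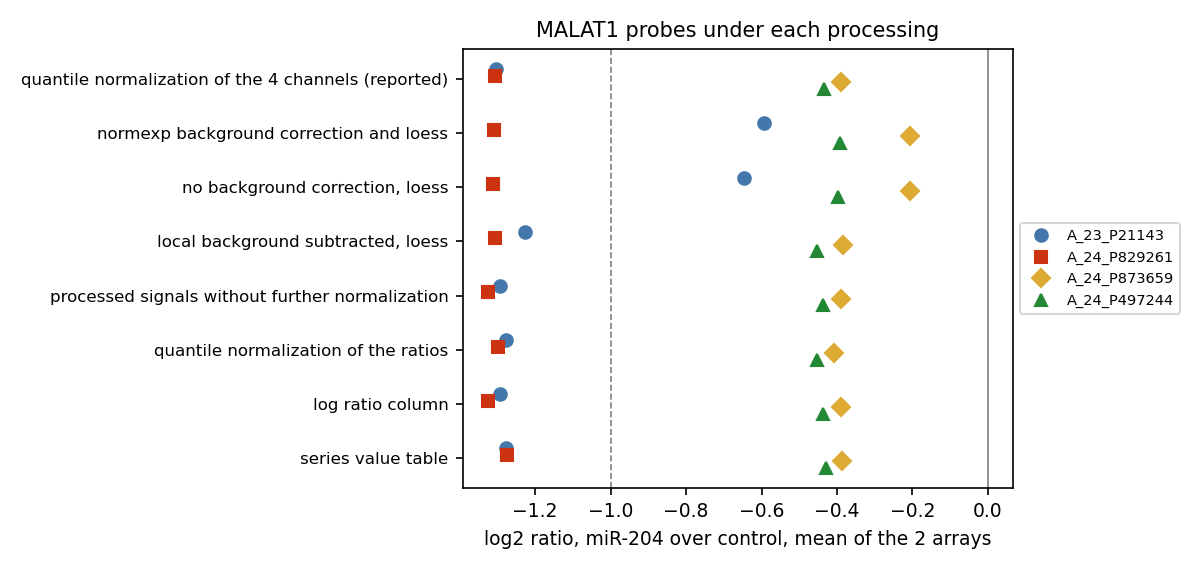
Mean log2 ratio over both arrays, miR-204 against control, at each of the 4 MALAT1 probes (marks) under each way of processing (rows); the dashed line marks 2-fold lower. The brightest probe, A_24_P829261, stays between -1.33 and -1.27 in every row, while A_23_P21143 moves from -1.30 to -0.59 with normexp and loess.

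The size of the fall at the dim 5′ probe depended on how background was treated, and that at the brightest probe did not. With normexp background correction and loess within each array, A_23_P21143 had a mean log2 ratio of -0.59, and without background correction -0.65. Under both, A_24_P829261 stayed at -1.31, A_24_P873659 was at -0.21, and A_24_P497244 was at -0.39 and -0.40. With the local background subtracted the 4 probes had -1.23, -1.31, -0.39 and -0.45 in their order along the transcript. So with normexp or without background correction, the call at A_23_P21143 was lost and that of the brightest probe kept. Those settings called fewer probes lower over the whole array too, 7 under either. The difference between the 5′ and 3′ pairs on the swapped array shrank as well, from -0.22 to -0.095 with normexp and -0.148 without background correction. On the first array it was -1.21 under either. With normexp the swapped array had -0.35 at A_23_P21143 and -0.44 at A_24_P497244, so single probes of the pairs changed order there.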

How the data were processed

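RNA of HEK-293 cells was hybridised to 2 dual-colour arrays that form 1 dye swap. The authors extracted signals with Feature Extraction 9.5.3.1. The deposited processed signals are intensity values that the authors' software corrected for background and dye, and the deposited mean and local background signals are uncorrected intensity values. A log10 ratio (Cy5 over Cy3) and its error were deposited too. The p-value deposited beside it, from the authors' software for 1 array, was not used. The deposited series table holds the authors' log2 ratios with the dye swap already turned. All columns of per-sample values used were mapped to a sample.

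Control spots and 128 outlier-flagged probes were excluded, spots of a probe averaged, and log2 processed signals quantile normalized over the 4 channels with limma 3.58.1 in R 4.3.3. Of 41000 probes 25268 were counted, the others being too near background. Dye-swap ratios were turned to miR-204 over control. Probe positions are on hg18, from the files; names and miRNA sequences are from RefSeq on GRCh38.p14. The number of arrays limits the precision.

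MALAT1 and the gene lists were chosen with earlier results of these data known. The genes named are MALAT1, names on probes within 100 kb, NEAT1, up to 3 members of each list with the largest mean ratio, the 5 nearest patterns, and, chosen after their values were seen, the other 3 names with every probe lower. Not every gene that meets these criteria is reported here. With 1 replicate no test of the conditions over cultures could be made. The methods' t-test and limma were run only as alternatives over arrays. Other alternatives changed background correction, normalization, filters, thresholds, arrays and the gene summary. The steps were tested on simulated data.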

Additional observations from a re-analysis of the deposited data

How the results depend on the processing

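No MALAT1 value changed sign under any alternative. The mean log2 ratio over the probes was below 0 under all 21 alternatives, from -1.31 to -0.53, and the count of probes higher was 0 under all 20. The count of probes lower by 2-fold was 2 and kept that value under 13 of 20 alternatives. It was 1 with normexp and loess and 1 with no background correction and loess, where A_23_P21143 was no longer past 2-fold. It was 0 when 2-fold was asked on each array. Leaving out saturated probes or changing the signal filter could not alter the count or the mean, as all 4 probes pass each filter. The deposited log ratio gave the same mean, -0.86, as the processed signals without further normalization. The methods' t-test gave 0 both unadjusted with 2-fold and after Benjamini-Hochberg, and limma gave 2 unadjusted and 0 after Benjamini-Hochberg. Both set miR-204 against control but treat the arrays of 1 replicate as if they were replicates. Neither is therefore a test of the conditions over cultures. Over all 25268 probes limma called 1176 at an unadjusted p under 0.05 and 0 after adjustment. The methods' t-test called 1604 and 1 in the same order. Without the 2-fold condition, 1 MALAT1 probe had an unadjusted p under 0.05 by the t-test and 2 by limma.

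Leaving out 1 array gave 0 to 2 probes lower, 0 without the first array and 2 without the swapped array, and a mean from -1.19 to -0.53. Leaving out each probe in turn, an alternative chosen after seeing the data, gave means from -1.01 to -0.71, and adding PRO1073 gave -0.85, also chosen after seeing the data. Over 14 alternatives A_23_P21143 ran from -1.88 to -0.59 and A_24_P829261 from -2.06 to -0.55. A_24_P829261 was the brightest of the 4 in all 4 channels with processed and with uncorrected mean signals.

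No paired analysis was possible because one dye swap holds a single pair of RNAs. The search for seed matches was not run, as no transcript sequence was used here. Signal over background limits A_23_P21143 and A_24_P873659, the dim MALAT1 probes.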
